A study of Mus musculus with 8 samples.

Results

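The genes described here encode the chains of laminin, the subunits of the integrins, and the nidogen, perlecan, agrin and dystroglycan genes, as they were measured in mouse brown adipose tissue with and without Lsd1. They were chosen by symbol alone, as all genes whose symbol starts with Itga, with Itgb and a digit, or with Lam, a chain letter (a, b or c) and a digit, together with Nid1, Nid2, Hspg2, Agrn and Dag1. The rule found 46 genes among 23372, of which 41 had enough counts to be tested, beside 14178 genes tested in all. It also took in Itgb1bp1, Itgb1bp2 and Itgb3bp, whose products bind integrins or are named after that binding and are not integrins.

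Brown adipose tissue, the fat depot that makes heat, was taken from mice of the C57BL/6 N background at 10 weeks of age, and its total RNA was sequenced. The 4 knockout libraries (replicates 512, 513, 515 and 516) came from mice that had floxed Lsd1 and expressed Cre recombinase under the promoter of the brown adipocyte gene Ucp1, so the other cell types of the depot were not targeted. The 4 control libraries (replicates 511, 514, 517 and 518) came from mice that had floxed Lsd1 and are labelled as controls, with no mention of Cre, so the loss of Lsd1 and the Cre transgene cannot be told apart. The comparison asks what Lsd1, a histone demethylase with the gene symbol Kdm1a, does in this tissue.

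Basement membranes are thin sheets of extracellular matrix that surround each adipocyte and underlie endothelium. Laminin, a trimer of an alpha, a beta and a gamma chain, forms a network that nidogens and the proteoglycans perlecan (Hspg2) and agrin (Agrn) join to collagen IV. Cells hold on to it through integrins, dimers of an alpha and a beta subunit that connect to the actin cytoskeleton, and through dystroglycan (Dag1), which connects to dystrophin or utrophin. Other integrins bind fibronectin, vitronectin or fibrinogen through the peptide RGD, bind collagens, or serve the adhesion of leukocytes and platelets.

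The libraries held 23683933 to 28570627 counts over genes. Kdm1a itself stood at 35.4 ± 1.52 CPM (counts relative to each library's total, corrected by TMM factors that allow for differences in RNA make-up; SD, n = 4) in controls and at 13.1 ± 0.711 in knockouts, with no overlap. The depot was also not the same in its other markers. The summed markers of brown adipocytes lay at 17326 to 23565 CPM in controls and 11399 to 13030 in knockouts, with Ucp1, Fabp4 and Elovl3 called lower among 7. Summed skeletal muscle markers ranged from 310 CPM in control 514 to 4991 in the other controls and from 5845 to 13004 in the knockouts, with the highest sum in knockout 512 and with 1 of 10 markers (Myh2) called higher. In tissue RNA, fewer cells of a type and less RNA per cell cannot be told apart, and this holds for every result below.

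Of the 41 members tested, 12 rose and 1 fell in the knockout, and 28 were not called. A call is an adjusted p below 0.05 from edgeR's quasi-likelihood test with Benjamini-Hochberg adjustment over all genes tested. Among all genes tested, 15.4% were called higher, 18.9% lower and 34.4% in either direction, beside 29.3% higher and 2.44% lower among the members. The median log2 fold change, given throughout as knockout over control, was 0.34 for the members and -0.01 for all genes tested, and 33 members had a fold above 0 and 8 below. In 9 members (22%) every knockout stood above every control, beside 15.8% of all genes, and in 1 member (2.44%) every knockout stood below, beside 19.7%. The integrin subunits gave 8 of 23 higher calls and the laminin chains 4 of 10, while the nidogens, perlecan and agrin gave none of 4. Without knockout 513 or without knockout 515 the higher calls were 7 (17.1%), and without knockout 516 they were 8 (19.5%). Among all genes the higher calls in these 3 sets of libraries were 10.7%, 11% and 10.9%. The lower call, Dag1, was made in each of the 16 other settings and sets of libraries tried.

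**Figure D1:**
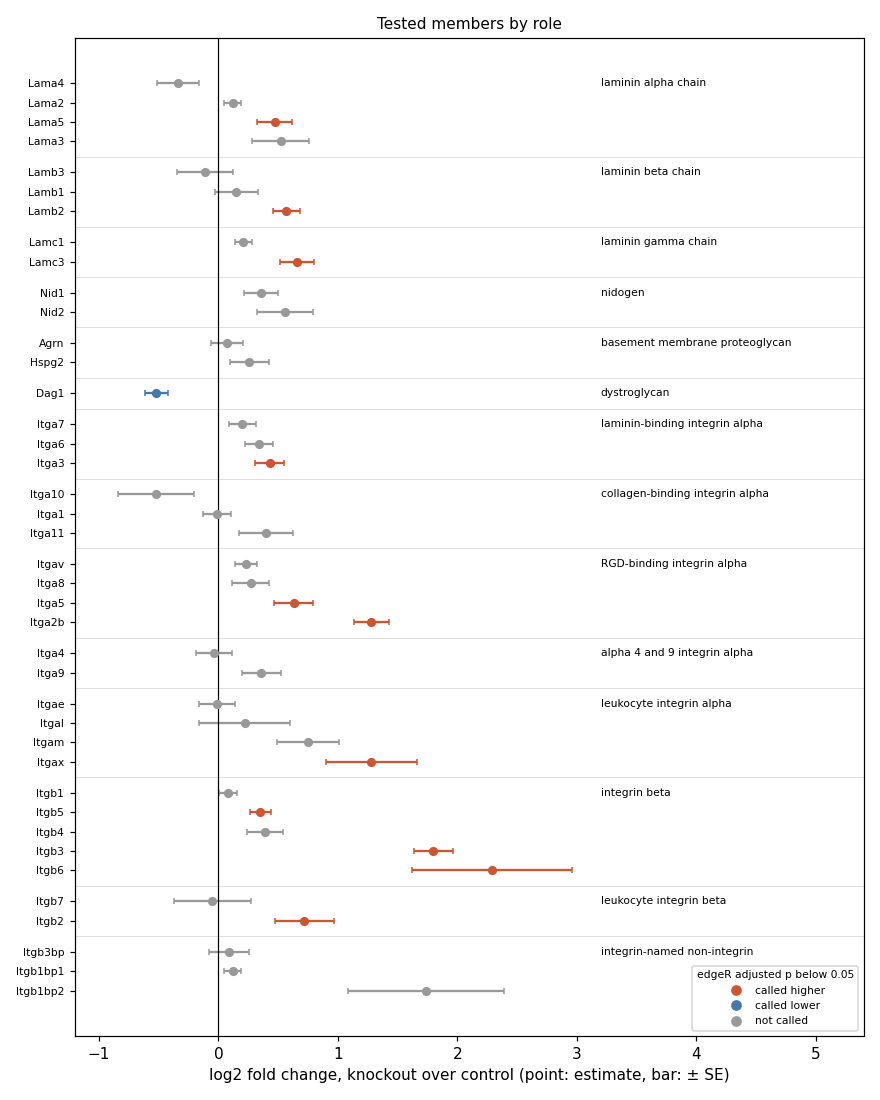
The log2 fold change of the members tested that are described here, knockout over control, grouped by role, with a bar of 1 approximate standard error (SE) to each side. The members called higher lie between 0.35 (Itgb5) and 2.29 (Itgb6), and Dag1, at -0.52, is the member called lower.

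Dystroglycan was the member that fell. Dag1 (chr9:108205958-108263736, minus strand, mm10) encodes both the laminin-binding alpha and the membrane-spanning beta dystroglycan. It was at 485, 487, 599 and 518 CPM in controls 511, 514, 517 and 518, and at 403, 369, 363 and 321 CPM in knockouts 512, 513, 515 and 516. Every other series of 4 and 4 values below is in that order of replicates. All knockouts were below all controls, and the means were 522 ± 53.5 and 364 ± 33.7 CPM (SD, n = 4), a level 1.44-fold lower (log2 -0.52, SE 0.0972, adjusted p 0.00397). Per kilobase of transcript, Dag1 was the most abundant member in the controls, at 119 ± 12.1 CPM per kb, above Itgb1 at 73.1 ± 4.83 and Hspg2 at 41.6 ± 9.58. Its lowest control (110) was above the highest control of Itgb1 (78.8). In the knockouts Dag1 was at 82.6 ± 7.64 CPM per kb and Itgb1 at 77.5 ± 3.55.

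The laminin beta 2 gene, Lamb2 (chr9:108479862-108490530, plus strand), lies 216 kb from Dag1 and moved the other way. It was at 194, 173, 136 and 142 CPM in controls and at 222, 249, 252 and 231 in knockouts, again with no overlap between the groups. Its mean went from 161 ± 27.1 to 239 ± 14.2 CPM (SD, n = 4; log2 0.57, SE 0.116, adjusted p 0.00608). The 250 bases before the start of each of these neighbours are given because the genes are close together and changed in opposite directions, from RefSeq's starts on GRCm38.p6, the assembly that mm10 is built on, 5′ to 3′ on the gene's own strand. Capitals mark matches, on either strand, to 6 motifs searched, which are the core promoter element TATAAA, the element CCAAT bound by NF-Y, the GC box spelled GGGCGG, the E-box spelled CANNTG, the letters AGATAA bound by GATA factors and the letters CCGGAAG bound by ETS factors.
Dag1 (chr9:108263816-108264065): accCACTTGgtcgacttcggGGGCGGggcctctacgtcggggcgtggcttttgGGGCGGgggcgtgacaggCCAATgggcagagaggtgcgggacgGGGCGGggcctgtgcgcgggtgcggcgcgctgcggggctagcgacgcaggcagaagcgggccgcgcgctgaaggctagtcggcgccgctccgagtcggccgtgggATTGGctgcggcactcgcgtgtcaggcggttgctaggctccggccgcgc
Lamb2 (chr9:108479612-108479861): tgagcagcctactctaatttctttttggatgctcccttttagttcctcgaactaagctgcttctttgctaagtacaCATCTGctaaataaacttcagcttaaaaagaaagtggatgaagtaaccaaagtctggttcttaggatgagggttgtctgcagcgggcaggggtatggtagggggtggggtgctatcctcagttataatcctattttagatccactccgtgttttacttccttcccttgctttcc
The Dag1 stretch holds 3 GC boxes, 2 CCAAT elements and 1 E-box and is 74.8% G and C, while the Lamb2 stretch holds 1 E-box and is 43.6% G and C. No matches overlap each other. Among 32851 promoters of the same length, the median G and C content is 52.4%, 32.7% hold a GC box, 33.8% a CCAAT element, 66.2% an E-box, 12.4% the core promoter element, 9.99% the GATA motif and 6.91% the ETS motif. RefSeq's start of Dag1 lies 79 bases from the start of the row counted here, and a match is a description of letters only.

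Among the laminin alpha chains, Lama5 rose and the other chains tested did not pass. Lama5, an alpha chain of vessel walls and many adult basement membranes, was at 62.1, 70.5, 52.9 and 43.2 CPM in controls and at 68.7, 75.9, 92 and 79.6 in knockouts. Knockout 512 lay below control 514, and the log2 fold change was 0.47 (SE 0.150, adjusted p 0.0388). The call was lost without control 517 (adjusted p 0.0895) and without knockout 513 (0.0713), 515 (0.104) or 516 (0.0818). Lama4, the chain typical of adipocyte and endothelial basement membranes and the most abundant alpha chain here, was at 164, 142, 191 and 269 CPM and at 138, 155, 167 and 145 CPM (log2 -0.34, adjusted p 0.167). Control 518 stood above all other libraries. Lama2, the alpha chain of muscle and nerve laminin, was at 27.6, 29.6, 28.2 and 28.9 CPM and at 33.6, 29.9, 28.9 and 31.6 CPM (log2 0.12, adjusted p 0.222). Upper quartile factors (adjusted p 0.0402) and library sizes alone (0.0117) called Lama2 higher.

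Of the beta chains other than Lamb2, Lamb1, the widespread beta chain, was at 191, 141, 93.8 and 134 CPM in controls and at 161, 160, 141 and 159 in knockouts (log2 0.15, adjusted p 0.538). The controls spread further than the knockouts and enclosed them. Lamc3, a gamma chain, rose, and Lamc1, the gamma chain shared by most laminins, missed the threshold. Lamc3 was at 26.3, 34, 36 and 27.2 CPM and at 38.4, 54.6, 47.8 and 53.9 CPM, with all knockouts above all controls (log2 0.66, SE 0.141, adjusted p 0.00757). Lamc1 was at 183, 171, 194 and 157 CPM and at 203, 198, 209 and 202 CPM. Here all knockouts were above all controls, by a log2 fold change of 0.21 (SE 0.075, adjusted p 0.0607), and without control 517 it was called higher (0.0372). It was also called higher with relative log expression factors (0.0488), upper quartile factors (0.0189), library sizes alone (0.00312), DESeq2 (0.0195) and limma-voom with sample weights (0.0484).

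Per kilobase, the make-up of each laminin chain class could be set side by side between libraries. Lama4 held 78.6% ± 6.39 of the alpha chain level in controls and 70.7% ± 1.10 in knockouts (SD, n = 4), and Lama5 held 13.4% ± 4.91 and 19.6% ± 1.12. Lamb2 held 54.0% ± 3.68 of the beta chain level in controls and 60.7% ± 2.56 in knockouts. Lamc3 held 18.3% ± 2.07 of the gamma chain level and 23.4% ± 3.04. Of 13 such shares of laminin chains and integrin subunits, none passed a two-sided exact permutation test over libraries after Benjamini-Hochberg adjustment, with a smallest adjusted p of 0.124. With 4 against 4 libraries the smallest unadjusted p is 0.0286, and shares within a class add up to a fixed total, so they are not independent.

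**Figure D2:**
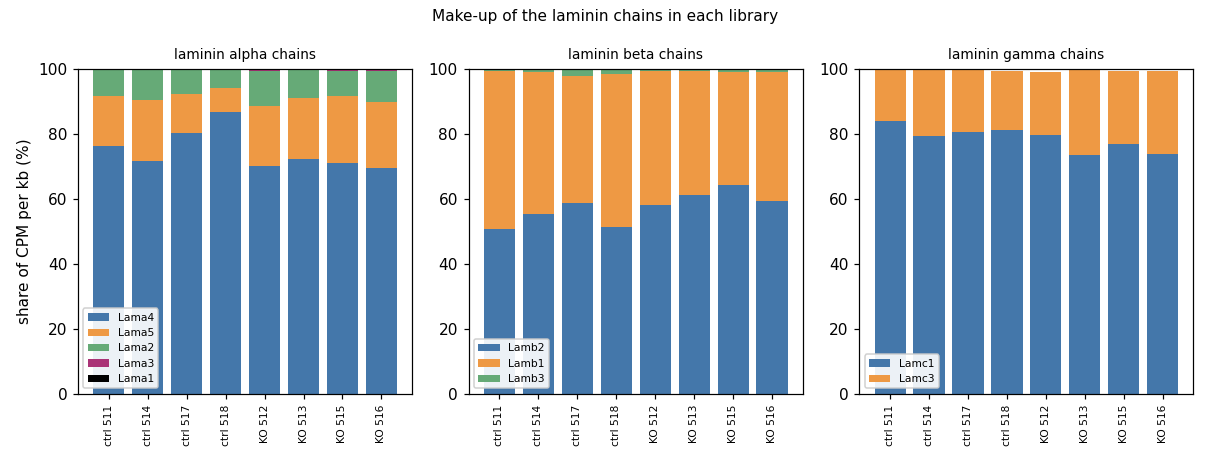
Stacked bars give the share, in percent of the summed CPM per kb, of the laminin alpha, beta and gamma chains described here in each of the 8 libraries (ctrl, control; KO, knockout). Lama4 takes 71.5% to 86.5% in controls and 69.6% to 72.1% in knockouts, and Lamb2 50.7% to 58.5% and 58.2% to 64.1%.

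The linkers of the laminin and collagen networks gave no call. Nid1, the major nidogen, was at 168, 133, 132 and 96.9 CPM in controls and at 180, 159, 171 and 172 in knockouts (log2 0.36, SE 0.143, adjusted p 0.0791). Nid2 was at 30.4, 24.8, 23.2 and 12 CPM and at 33.5, 28.4, 36.1 and 35.4 CPM (log2 0.56, SE 0.236, adjusted p 0.093). In both nidogens control 518 was the lowest library and the groups overlapped. Without control 511 both were called higher, at adjusted p 0.0155 for Nid1 and 0.0403 for Nid2, and without control 518 Nid2 was called higher at 0.0438. DESeq2 (adjusted p 0.0363 and 0.0415) and library sizes alone (0.00959 and 0.0256) also called both, and upper quartile factors called Nid1 (0.0376). Perlecan, the heparan sulfate proteoglycan encoded by Hspg2, was at 635, 734, 538 and 421 CPM and at 684, 653, 804 and 648 CPM (log2 0.26, SE 0.160, adjusted p 0.231). Library sizes alone called Hspg2 higher (adjusted p 0.0418). Agrin, best known for gathering acetylcholine receptors at the neuromuscular junction, was at 111, 155, 139 and 98.5 CPM and at 135, 123, 143 and 130 CPM (log2 0.07, adjusted p 0.699).

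Of the laminin-binding alpha subunits, Itga3 rose, and Itga6 and Itga7 were not called. Itga3 was at 15.6, 18.3, 16.4 and 13 CPM in controls and at 18.1, 21.9, 23.3 and 21.8 in knockouts, with knockout 512 just below control 514 (log2 0.43, SE 0.122, adjusted p 0.0254). The call was lost without knockout 513 (adjusted p 0.0664), 515 (0.0729) or 516 (0.0639). Itga6, a laminin receptor of epithelium and endothelium, was at 37.2, 46, 36.4 and 30 CPM and at 45, 48.8, 51 and 44 CPM (log2 0.34, SE 0.121, adjusted p 0.0578), and was called higher without control 514 (0.0115). The same alternatives in scaling and tool that called Lamc1 also called Itga6 higher, at adjusted p 0.0447, 0.0274, 0.00939, 0.0229 and 0.0427. Itga7, the main laminin-binding alpha subunit of muscle and the most abundant of these subunits per kilobase, was at 88.2, 73.8, 65.1 and 79 CPM and at 97.4, 78, 81.3 and 95.7 CPM (log2 0.20, adjusted p 0.182). Library sizes alone called Itga7 higher (adjusted p 0.0156).

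Itgb1, the common partner of these subunits and of the collagen-binding ones, was not called. It was at 328, 307, 279 and 303 CPM in controls and at 301, 328, 335 and 325 in knockouts (log2 0.08, SE 0.0716, adjusted p 0.394). Library sizes alone called Itgb1 higher (adjusted p 0.0164). Itgb4, the partner of alpha 6 in hemidesmosomes, was at 9.98, 10.3, 9.42 and 9.69 CPM and at 15.3, 10.8, 15.4 and 10.2 CPM (log2 0.39, adjusted p 0.076). Knockouts 512 and 515 were high, and 513 and 516 lay near the controls, and without knockout 516 it was called higher (adjusted p 0.0406), as it was with upper quartile factors (0.0343), library sizes alone (0.0154) and DESeq2 (0.0471). Itga1, the collagen-binding partner of beta 1, was at 64.6, 75.9, 67.7 and 89 CPM and at 71.3, 85.9, 69.5 and 68.8 CPM, with a log2 fold change of -0.01 (adjusted p 0.96). Itga4, which binds VCAM1 and fibronectin, was at 19.3, 15.8, 20.9 and 12.7 CPM and at 16.8, 16, 15.8 and 18.1 CPM (log2 -0.04, adjusted p 0.859).

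Of the integrins that bind RGD ligands, Itgb3 and Itga2b had the smallest adjusted p of all members. Itgb3 (chr11:104608000-104670471, plus strand), which pairs with alpha v in many cells and with alpha IIb in platelets, was at 2.1, 1.96, 2.73 and 2.26 CPM in controls and at 6.5, 7.45, 8.6 and 9.08 in knockouts. The lowest knockout was above the highest control, and the mean rose 3.49-fold, from 2.26 ± 0.336 to 7.91 ± 1.16 CPM (SD, n = 4; log2 1.80, SE 0.164, adjusted p 0.000205). Its partner Itga2b, the alpha IIb subunit of the fibrinogen receptor of platelets, lies 2138 kb away (chr11:102453297-102469883, minus strand). It was at 2.73, 2.79, 3.08 and 2.26 CPM and at 5.73, 7.45, 6.39 and 6.8 CPM, a 2.43-fold rise from 2.72 ± 0.340 to 6.59 ± 0.719 (log2 1.28, SE 0.147, adjusted p 0.000514). Both genes were called higher in each of the 16 other settings and sets of libraries. The stretch before the start of Itga2b is printed because this gene is widely used as a mark of the megakaryocyte lineage and rose in tissue RNA, with capitals as above.
Itga2b (chr11:102469884-102470133): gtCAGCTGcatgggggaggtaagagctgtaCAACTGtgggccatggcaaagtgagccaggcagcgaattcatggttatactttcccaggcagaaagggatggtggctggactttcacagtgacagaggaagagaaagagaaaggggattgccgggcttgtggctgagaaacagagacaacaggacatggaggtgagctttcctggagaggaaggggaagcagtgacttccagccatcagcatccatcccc
It holds 2 E-boxes and none of the other motifs, and is 54% G and C. Beside these rises, the summed level of 6 platelet and megakaryocyte markers was 5.47 to 9.64 CPM in controls and 9.71 to 13.2 in knockouts. Gp6 was at 0 in all 4 controls and in 3 knockouts, and Gp9 in 1 knockout, and these were not tested. Of the 4 of them tested, Gp1bb was called higher (1.30 ± 0.493 to 2.28 ± 0.174 CPM, log2 0.81, adjusted p 0.0341) and the others were not called. The log2 fold changes of these others went both ways, at 0.36 for Gp1ba, 0.62 for Pf4 and -0.64 for Ppbp. Pf4 had the highest level, at 4.24 ± 1.12 CPM in controls and 6.51 ± 1.52 in knockouts. The part of platelets in the Itga2b and Itgb3 values was not tested.

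Itga5, the alpha subunit of the main fibronectin receptor, was at 20.2, 19.1, 16.5 and 19.5 CPM in controls and at 19.8, 31.1, 35 and 30.3 in knockouts. Knockout 512 lay among the controls, and the other knockouts were above them (log2 0.63, SE 0.162, adjusted p 0.0168). Itgb5, a vitronectin receptor subunit that pairs with alpha v, was at 78.5, 84.8, 71.3 and 93.5 CPM and at 111, 105, 99.8 and 102 CPM, with no overlap (log2 0.35, SE 0.0880, adjusted p 0.0153). Itgav, the shared alpha v subunit, was at 33.1, 34.9, 30.1 and 29.9 CPM and at 39.7, 41.4, 33.9 and 35.1 CPM (log2 0.23, SE 0.0893, adjusted p 0.0717), and was called higher with upper quartile factors (0.0213), library sizes alone (0.00756) and DESeq2 (0.0436). Itgb6, an epithelial partner of alpha v that activates latent TGF-beta, was at 1.09, 0.0798, 0.352 and 2.04 CPM and at 7.74, 4.29, 2.84 and 2.92 CPM. This gene varied most between libraries among the called members, and all knockouts were above all controls (log2 2.29, SE 0.673, adjusted p 0.0279). It was not called without control 517 (adjusted p 0.0632) or without knockout 512 (0.0727) or 513 (0.0593). Its log2 fold change was 3.13 without control 518 and 3.16 with limma-voom. Control 514 was the lowest library, control 518 the highest control and knockout 512 the highest knockout for Itgb6. The same held for the skeletal muscle sum (310, 4991 and 13004 CPM). The lowest knockout was 515 for Itgb6 and 516 for that sum. The part of muscle in the Itgb6 values was not tested.

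Of the beta subunits, Itgb1 held 70.5% ± 2.23 of the summed level per kilobase in controls and 65.5% ± 1.88 in knockouts (SD, n = 4). Itgb3 held 0.384% ± 0.0789 and 1.16% ± 0.158, and in these shares the groups did not overlap (two-sided exact permutation p 0.0286 for each, the smallest the design allows, and adjusted p 0.124).

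**Figure D3:**
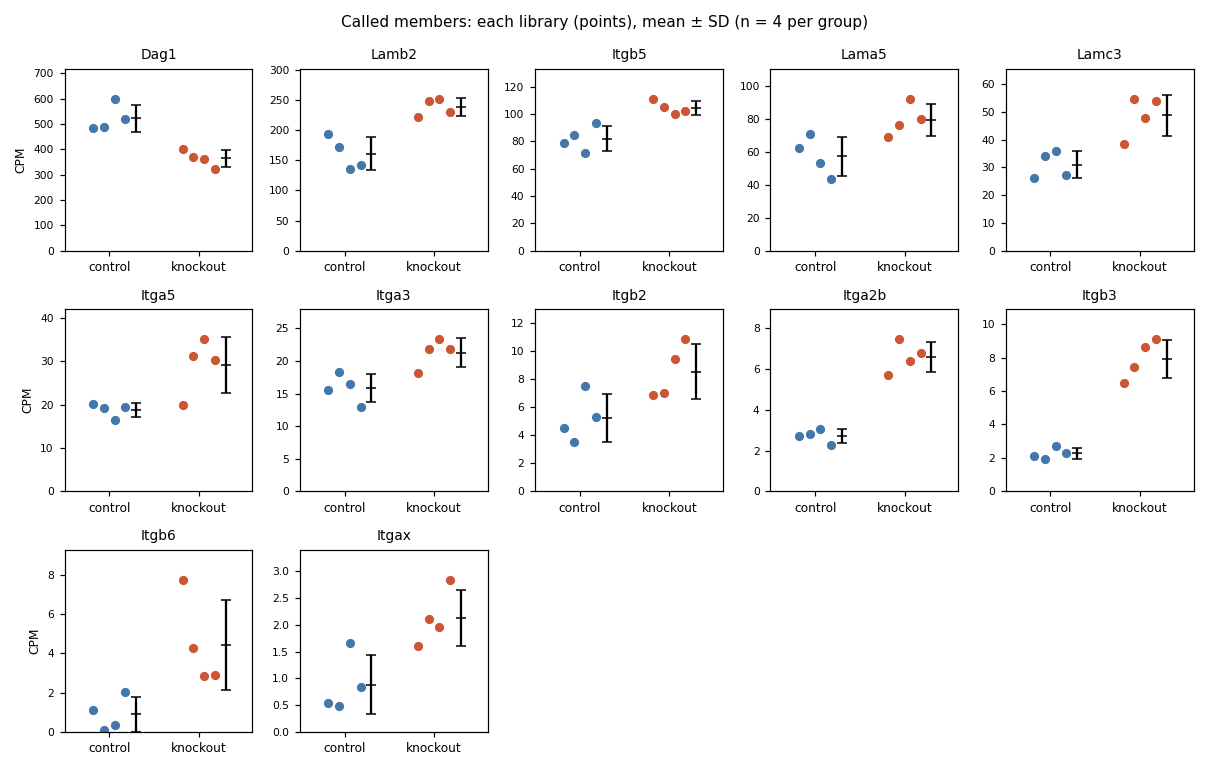
CPM of the called members described here, with a point for each library and a bar for the mean ± SD of each group (n = 4), on axes that start at 0. Groups do not overlap for Dag1, Lamb2, Itgb5, Lamc3, Itga2b, Itgb3 and Itgb6, and knockout 512 lies among the controls for Itga5.

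Leukocyte integrins gave 2 higher calls of 6 tested. Itgb2, a beta subunit of leukocyte integrins, was at 4.48, 3.47, 7.49 and 5.28 CPM in controls and at 6.82, 6.99, 9.43 and 10.8 in knockouts (log2 0.72, SE 0.247, adjusted p 0.0498). Control 517 lay above knockouts 512 and 513, and the call was lost when any library but control 517 was left out, with adjusted p from 0.0519 without knockout 512 to 0.133 without knockout 516. The Itgb2 call was also lost with no filter on low counts (adjusted p 0.0529) and with summed rows (0.0521). Itgax, which encodes CD11c of dendritic cells and some macrophages, was at 0.546, 0.479, 1.67 and 0.829 CPM and at 1.6, 2.11, 1.97 and 2.84 CPM (log2 1.28, SE 0.383, adjusted p 0.0298). Its call was lost without control 511 (adjusted p 0.0648), 514 (0.0588) or 518 (0.0576) and without knockout 513 (0.0642), 515 (0.0574) or 516 (0.0827). Itgam, the CD11b subunit of myeloid cells, lies 11.1 kb from Itgax on chromosome 7. It was at 4.76, 2.27, 4.84 and 4.67 CPM and at 4.97, 6.32, 8.44 and 8.08 CPM, with no overlap but a log2 fold change that missed the threshold (0.75, SE 0.262, adjusted p 0.0523). Of its exon bases, 68.7% are shared with Gm49368, and reads in the shared bases cannot be told apart in these counts. Without knockout 512 it was called higher (adjusted p 0.0385), as it was with upper quartile factors (0.0346), library sizes alone (0.0214), summed rows (0.0498), DESeq2 (0.0191) and limma-voom (0.0301).

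Itgb2, Itgax and Itgam were higher on average in knockouts, as were the macrophage markers. Itgae, Itgal and Itgb7 were not called (log2 -0.01, 0.22 and -0.05). The sum of the macrophage markers was 74.8 to 134 CPM in controls and 138 to 214 in knockouts, with 4 of 9 tested called higher (Cd68, Csf1r, C1qb and C1qa). Marco, which was not tested, was at 0 in 2 controls. Control 517 was the highest control and knockout 516 the highest knockout for Itgb2, for Itgax and for the macrophage sum. That sum was 134 CPM in control 517 and 126 in control 511. For Itgam the highest knockout was 515 (8.44 CPM, beside 8.08 in 516). Control 517 was also the highest control for the lymphocyte sum (19.1 CPM), for Itgal (4.71) and for Itgb7 (5.37). The part of macrophages or lymphocytes in the leukocyte integrin values was not tested. Lymphocyte markers (3.94 to 19.1 CPM summed in controls, 5.3 to 7.42 in knockouts) gave no call of 7 tested and neutrophil markers (2.22 to 6.52 and 2.37 to 3.96 CPM) none of 3.

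**Figure D4:**
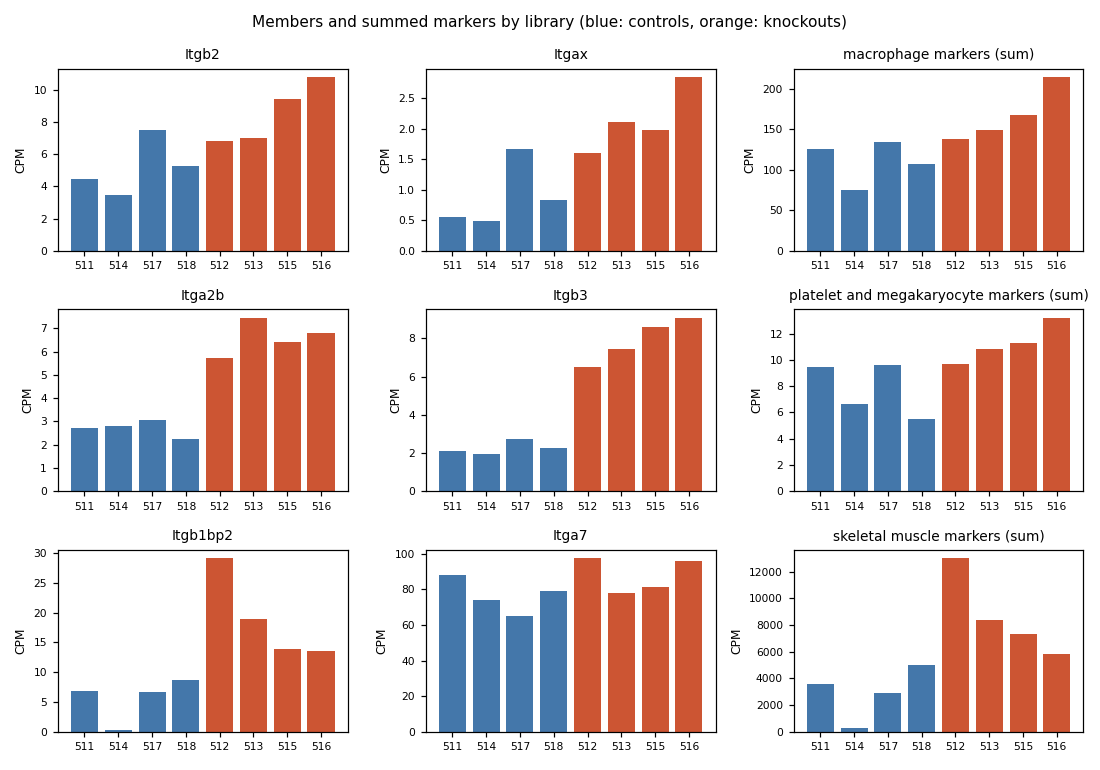
Bars give the CPM of 6 members and, in the last column, the summed CPM of macrophage, platelet and skeletal muscle markers in each library, controls in blue and knockouts in orange. Itgb1bp2 is lowest in control 514 (0.239) and highest in knockout 512 (29.1), as is the muscle sum (310 and 13004).

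Of the genes named after integrin binding, none was called. Itgb1bp2, which encodes the muscle protein melusin, was at 6.86, 0.239, 6.65 and 8.74 CPM in controls and at 29.1, 18.9, 13.9 and 13.5 in knockouts (log2 1.74, SE 0.652, adjusted p 0.0658). All knockouts were above all controls, and the libraries at both ends were those at both ends of the skeletal muscle sum. The part of muscle in it was not tested. Without control 514 it was called higher (log2 1.34, adjusted p 0.00884), as it was with library sizes alone (0.0445) and limma-voom (log2 2.75, adjusted p 0.0311). Itgb1bp1, an inhibitor of integrin activation, was at 31.9, 27.2, 28 and 30.7 CPM and at 33.2, 30.8, 31.5 and 32.3 CPM (log2 0.12, adjusted p 0.232). Upper quartile factors (adjusted p 0.0367) and library sizes alone (0.00913) called Itgb1bp1 higher. With control 514 and knockout 512 both left out, 10 members (24.4%) were called higher and Dag1 lower. In that set of libraries 12.7% of all genes were called higher and 14.2% lower. Itgb5, Itgb6, Itgb2 and Itgax were among the calls lost, and Itga6, Itgam and Itgb1bp2 were gained.

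The other 10 members tested were below 5 CPM on average and were not called. They are Itga8, Itga9, Itga10, Itga11, Itgae, Itgal, Itgb3bp, Itgb7, Lama3 and Lamb3, and their log2 fold changes lay between -0.52 (Itga10) and 0.52 (Lama3), with adjusted p from 0.114 to 0.966. Of the exon bases of Itga10, 33.5% are shared with Gm42957. Without control 517 Lama3 was called higher (0.0337), and with library sizes alone so were Lama3 (0.0376) and Itga9 (0.0282). Itga2, Itgad, Itgb2l, Itgb8 and Lama1 had too few counts to be tested and reached at most 0.401 CPM in any library (Itgb8 in knockout 512).

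In the authors' deposited table, 12 members were called higher and 1 lower at an FDR below 0.05, beside 9.29% and 8.15% of its 30521 rows. Of those called in the authors' deposited table, 10 of the higher ones and Dag1 were also called here. The authors' deposited table adds Itgam and Itgb1bp2 and does not call Itga3 and Itgb5.

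Genes that work with the members were counted in 5 lists drawn up from textbook knowledge, with earlier results of these data known. Among all genes tested, 15.4% were called higher and 18.9% lower. Without knockout 513, 515 or 516 the all-gene shares were 10.7%, 11% and 10.9% higher and 13.3%, 14.3% and 13.7% lower. Of 29 integrin adaptors and focal adhesion genes tested, 10 rose (34.5%) and 3 fell (10.3%), with a median log2 fold change of 0.21. Pxn (paxillin) rose from 47.3 ± 3.36 to 58.8 ± 2.48 CPM (SD, n = 4; log2 0.32, adjusted p 0.00907). Fermt2 (kindlin-2, an integrin activator) rose by 0.33, Flna (filamin A) by 0.35, Zyx (zyxin) by 0.52 and Tgfb1i1 (Hic-5) by 0.95 on the log2 scale. Actn4 (alpha-actinin-4) fell from 459 ± 33.9 to 370 ± 14.4 CPM (log2 -0.31, adjusted p 0.0113). The list gave 5 higher calls without knockout 513 or without knockout 515 and 6 without knockout 516. Its lower calls were 1 without control 517 or without any of knockouts 513, 515 and 516, and 0 with upper quartile factors or library sizes alone. Of all genes, 16.8% were called lower without control 517, 11.5% with upper quartile factors and 6.56% with library sizes alone.

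Other basement membrane proteins gave 9 higher (37.5%) and 1 lower (4.17%) calls of 24 tested, with a median of 0.35. Col4a5, a collagen IV chain, rose from 11.6 ± 2.60 to 30.0 ± 3.97 CPM (log2 1.37, adjusted p 0.000599). Fras1, which anchors epithelial basement membranes in development, was at 0.234, 0.279, 1.01 and 1.43 CPM in controls and at 4.25, 12.6, 6.31 and 15.1 in knockouts (log2 3.68, SE 0.599, adjusted p 0.00215), with a log2 fold change of 4.28 without control 518. Tinagl1 rose by 0.53, Fbln2 (fibulin-2) by 0.48 and Smoc2 by 0.41 on the log2 scale. Smoc1, a SPARC-related matrix protein, fell from 158 ± 25.0 to 85.1 ± 12.3 CPM (log2 -0.89, adjusted p 0.00178). Without knockout 516 the higher calls were 5, and without knockout 513 or 515 they were 6.

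Dystroglycan's partners in the membrane moved in both directions. Of 13 genes of the dystrophin and sarcoglycan complex tested, 5 rose (38.5%) and 2 fell (15.4%), with a median of 0.47. Without control 518, 8 were called higher, beside 15.8% of all genes. Sgcd (delta-sarcoglycan) fell from 15.8 ± 2.48 to 8.54 ± 0.437 CPM (log2 -0.89, adjusted p 0.00111), while Sgcb (beta-sarcoglycan) and Sgce (epsilon-sarcoglycan) each rose by 0.47 on the log2 scale. Sspn (sarcospan) rose from 73.5 ± 13.8 to 116 ± 8.75 CPM (log2 0.66, adjusted p 0.00493). Dtnb (beta-dystrobrevin) rose from 2.90 ± 0.224 to 7.98 ± 1.09 CPM (log2 1.46, adjusted p 0.00027). Utrn (utrophin) fell from 114 ± 3.26 to 99.4 ± 5.34 CPM (log2 -0.19, adjusted p 0.0372). This call was lost without any 1 of the controls (adjusted p 0.0515 to 0.114) and without knockout 513, 515 or 516 (0.0758, 0.0965 and 0.1). Scaling also removed it, with relative log expression factors (log2 -0.18, adjusted p 0.0584), upper quartile factors (-0.09, 0.264) and library sizes alone (0.0048, 0.965). The skeletal muscle sum, given above, was higher in all knockouts than in any control, and its part in this list was not tested.

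Of 17 genes that glycosylate dystroglycan or make the sugar donors for it, 1 rose (5.88%) and 6 fell (35.3%), with a median of -0.05. Pomt1, an O-mannosyltransferase, fell from 81.1 ± 7.89 to 61.5 ± 3.25 CPM (log2 -0.40, adjusted p 0.00626). Pomgnt1, which extends the O-mannose, fell from 142 ± 5.33 to 112 ± 12.7 CPM (log2 -0.35, adjusted p 0.0139). Dpm1 and Dpm3, subunits of dolichol-phosphate mannose synthase, fell by 0.34 and 0.32 and Dolk, dolichol kinase, by 0.41 on the log2 scale. Dpm3 was not called without knockout 516 (adjusted p 0.0522). Large, listed under its older symbol and encoding the enzyme that builds the laminin-binding glycan, rose from 19.5 ± 1.90 to 25.7 ± 2.52 CPM (log2 0.40, adjusted p 0.0153). The list gave 4 higher and 3 lower calls with upper quartile factors and 4 higher and 0 lower with library sizes alone. These scalings moved all genes the same way, to 20.6% higher and 11.5% lower and to 28.8% higher and 6.56% lower.

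Other receptors for laminin and matrix gave 7 higher calls (43.8%) and 1 lower (6.25%) of 16 tested, with a median of 0.29. Sdc2 (syndecan-2) was at 32.3, 31.3, 26.1 and 26 CPM in controls and at 53.8, 56.8, 60 and 61.4 in knockouts (log2 1.0, SE 0.0921, adjusted p 0.000217). Sdc1 (syndecan-1) rose by 0.69, Cd9 (a tetraspanin that binds integrins) by 0.40 and Ddr1 (a collagen-binding receptor kinase) by 0.69 on the log2 scale. Ddr1 was not called without control 517 (adjusted p 0.0526) or without knockout 513 (0.0636) or 516 (0.0544). Cd44, the hyaluronan receptor, rose from 4.34 ± 1.12 to 10.1 ± 2.30 CPM (log2 1.21, adjusted p 0.00422). Cd36, a fatty acid transporter that also binds thrombospondin and collagen, fell from 2908 ± 330 to 2261 ± 74.8 CPM (log2 -0.36, adjusted p 0.0156). The list gave 4 higher calls without knockout 513 or without knockout 516, and 2 lower calls without control 517.

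**Figure D5:**
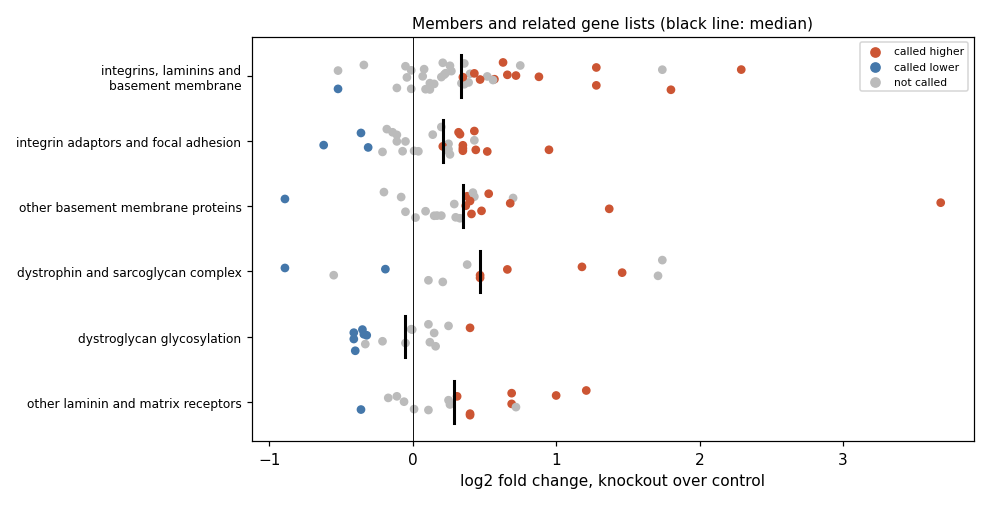
Each point is the log2 fold change, knockout over control, of a tested gene of the members or of 1 of the 5 related lists, coloured by its call, with a black line at the median. Medians run from -0.05 (dystroglycan glycosylation) to 0.47 (dystrophin and sarcoglycan complex), with 0.34 for the members.

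Other cell types of the depot gave these values beside the basement membrane genes. Endothelial markers summed to 1027 to 1217 CPM in controls and 1070 to 1228 in knockouts, with 1 of 8 (Cldn5) called higher. Fibroblast and preadipocyte markers summed to 523 to 734 and 625 to 941 CPM, with none of 7 called. Smooth muscle and pericyte markers summed to 683 to 875 and 847 to 1162 CPM, with Cspg4 called lower among 8. Without Des, which is also in the skeletal muscle list, the other 7 summed to 517 to 629 CPM in controls and 475 to 599 in knockouts. Schwann cell markers summed to 194 to 285 and 265 to 340 CPM, with none of 6 called. No marker in these 4 lists was at 0 in any library, and their part in the laminin, nidogen and integrin values was not tested.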

How the data were processed

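Total RNA of brown adipose tissue for 8 libraries (4 controls, 4 knockouts) was isolated with Trizol for Illumina sequencing, per the labels' protocols. Whether each library came from a single mouse, and its sex, are not given in the sources used here, and p-values measure the spread between these libraries. Reads were aligned to mm10 with TopHat 2, and HOMER and edgeR were used, per the submitters' processing notes. The deposited estimated counts were made by HOMER from RefSeq models over exons on both strands, without adjustment, per the file headers. They come in steps of 0.5 (36.9% not whole) and were rounded. The authors' deposited comparison table gives their own fold (ratio), log2 fold change, log2 CPM, p-value and FDR, and a signal of scaled counts, per the file headers.

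Of 30521 transcript rows, 829 without a symbol were left out (0.0608% to 0.0824% of counts). For 3969 symbols with several rows, the row with the highest total was kept. Genes were filtered with filterByExpr (minimum count 10) and tested with edgeR 4.0.16 (R 4.3.3) by the two-sided quasi-likelihood test with TMM factors (0.898 to 0.961 in controls, 1.05 to 1.10 in knockouts) and Benjamini-Hochberg adjustment. The common biological coefficient of variation was 0.181. An SE is the log2 fold change divided by the square root of F, an approximation. CPM are scaled by TMM factors. Alternatives were 3 other scalings, no filter, summed rows, DESeq2 1.42.0, limma-voom with sample weights (limma 3.58.1) and sets of libraries left out. Wherever limma-voom is named, the fit with sample weights is meant.

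The members and lists were chosen with earlier results of these data known. Named are all members called or at 5 CPM or more, and up to 6 called genes of each list by smallest p. A called member is not reported here by name and enters only counts and medians. The shares of chains and the removal of control 514 and knockout 512 together were chosen after seeing the data. Of the members, 30 matched a RefSeq promoter entry (GRCm38.p6).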

Additional observations from a re-analysis of the deposited data

Results flagged for a closer look

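Of 82 groups of 4 libraries (41 members, each in controls and knockouts), 4 held a library far from the other 3, and chance alone gives about 1 in 20. Itga1 was at 85.9 CPM in knockout 513, with the other knockouts at 68.8 to 71.3. Itga11, a collagen receptor subunit of fibroblasts, was at 2.99 CPM in knockout 516, with the others at 3.61 to 3.69. Itgam was at 2.27 CPM in control 514, with the others at 4.67 to 4.84, and control 514 also had the lowest macrophage sum (74.8 CPM). Lamb1 was at 141 CPM in knockout 515, with the others at 159 to 161. None of these 4 members was called.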

How the results depend on the processing

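Of the 13 members called, 6 (Itgb3, Itga2b, Lamb2, Lamc3, Itga5 and Dag1) were called the same way in all 16 alternatives; the cause of the changes below was not tested. Scaling moved the counts: the all-gene median shifted by 0.103 with upper quartile factors and by 0.199 with library sizes alone (log2), and with them the members' median was 0.44 and 0.54 and the members called higher were 20 (48.8%) and 27 (65.9%), beside 20.6% and 28.8% of all genes. DESeq2 called 19 higher (46.3%), beside 18% of all genes. With 1 library left out, the members called higher were 7 to 11 (17.1% to 26.8%) and their median 0.26 to 0.36. In these sets of libraries 10.7% to 15.8% of all genes were called higher and 13.3% to 18.5% lower. The adaptors' higher calls were 15 with library sizes alone and 5 to 12 with 1 library left out, and their lower calls 0 with upper quartile factors, 0 with library sizes alone and 1 to 3. Higher calls of other basement membrane proteins were 5 to 9 with 1 library left out, 10 with upper quartile factors and 13 with library sizes alone. For the dystrophin complex, higher calls were 4 to 8 and lower calls 1 to 2 with 1 library left out, and lower calls 1 with relative log expression factors, with upper quartile factors and with library sizes alone. Glycosylation genes gave 4 and 4 higher and 3 and 0 lower calls with the last 2 scalings, 1 to 2 higher and 4 to 6 lower with 1 library left out, and 0 higher without control 514 and knockout 512. Other receptors gave 4 to 8 higher and 1 to 2 lower with 1 library left out, and 0 lower with the last 2 scalings.

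Called genes kept their direction, except Utrn (0.0048 with library sizes alone). Uncalled members near 0 changed sign. Itga1 was at 0.0041, 0.10, 0.19, 0.004 and 0.05 with relative log expression, upper quartile, library sizes alone, DESeq2 and limma-voom, at 0.02 without control 514 and knockout 512, and at -0.09 to 0.11 with 1 library left out. Itgae was at 0.0038, 0.09, 0.19 and 0.0028 with the same first 4, at 0.07 with summed rows, at 0.01 without control 514 and knockout 512, and at -0.07 to 0.05. With upper quartile factors and library sizes alone, Itga4 was at 0.06 and 0.16 and Itgb7 at 0.06 and 0.15 (0.11 with limma-voom), and with library sizes alone Lamb3 was at 0.08. Leaving out 1 library gave -0.14 to 0.06 for Itga4, -0.23 to 0.31 for Itgb7, -0.23 to 0.03 for Lamb3, -0.0031 to 0.19 for Agrn, -0.03 to 0.61 for Itgal, -0.0025 to 0.24 for Itgb3bp and -0.001 to 0.34 for Lamb1. Members below about 1 CPM, such as Itgb6 in controls, rest on few counts. No paired analysis was possible because the groups share no replicate number.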
